A study of Mus musculus with 6 samples.

Results

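The genes described here are those of the smooth muscle contractile apparatus: the actins and myosins, the proteins of the thin filament and of the dense bodies that anchor it, the calcium-handling proteins, and serum response factor (SRF) with its coactivator myocardin. They were chosen by symbol from a list of 40 genes, of which 39 were measured by 1 probe set each, out of 20239 named genes on the array; Itpr1 is not analysed here. Pericytes, the mural cells that wrap capillaries, were isolated from mice of the C57BL/6 background and cultured, and total RNA was hybridised to 1-colour arrays. The 3 PDGF-BB cultures received platelet-derived growth factor BB at 100 ng/ml for 5 days, and the 3 control cultures had 5 days of a control treatment that the labels do not describe further. PDGF-BB acts on PDGFR-β, a receptor tyrosine kinase that pericytes carry and need for their recruitment to vessels. The labels number the arrays 1 to 3 in each group and do not say whether they came from separate animals, isolations or cultures. The spread behind every p-value is that among these 6 samples and may be technical.

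In contractile mural cells, myosin light chain kinase, switched on by calcium and calmodulin, phosphorylates the regulatory myosin light chain, and myosin phosphatase reverses this. Myosin filaments then pull on actin filaments coated with tropomyosin, caldesmon and calponin and held at dense bodies by α-actinin, filamin and LIM proteins. Many of these genes carry the CArG box, the DNA element bound by SRF, which works with myocardin or with the myocardin-related factors MRTF-A and MRTF-B. Smooth muscle cells in culture are known to lower these genes when they take on a proliferative state, and PDGF-BB is a classical agent of that switch.

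The values are log2 expression values on which 1 unit is a 2-fold difference. The median log2 value over all named genes lay between 8.43 and 8.46 on the 6 arrays. Arrays of the same group correlated at r = 0.994 to 0.996 across genes, which are not independent replicates, and no array stood apart from its group. A level of 7.71 was taken as background, the 90th percentile of the means of 16 genes that pericytes should lack (genes of lymphocytes, mast cells and erythroid cells). Of these 2 had means above it, Cd3e (8.22 with PDGF-BB and 8.27 in control) and Epor (7.94 and 7.97). Values a little above 7.71 may thus still be background. Pdgfrb, a marker of pericytes, measured 12.85 ± 0.09 with PDGF-BB and 12.98 ± 0.11 in control (SD, n = 3 each). The fibroblast marker Pdgfra was similarly bright (12.82 ± 0.08 with PDGF-BB and 12.90 ± 0.10 in control), so these levels do not tell pericytes from fibroblasts. Of 12 pericyte markers 8 had a mean over the 6 arrays above background, and Abcc9, Vtn, Higd1b and Ndufa4l2 did not. Among the 8, Rgs5 (7.71 with PDGF-BB and 7.77 in control) and Kcnj8 (7.63 and 7.85) lay close to the background level. Of 10 endothelial markers 1 had a mean above it (Vwf), of 10 macrophage markers 1 (Cd68), and of 10 fibroblast markers 9. Fibroblast transcripts such as Col1a1, Dcn and Pdgfra were thus present at high levels in both groups. In these bulk samples, fewer cells of a type and less RNA per cell cannot be told apart.

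Much of this apparatus was lower with PDGF-BB. Of the 39 genes 19 fell, 2 rose and 18 were not called. Genes were called at an adjusted p under 0.05 in limma's moderated fit, adjusted by Benjamini-Hochberg over all 20239 genes, of which 21.5% were called. Those that fell are 48.7% of the measured members, against 11.4% of all genes, and those that rose are 5.13%, against 10.1% of all genes. The median log2 change, PDGF-BB minus control, was -0.36 over the 39 genes and -0.02 over all genes. A called fall of at least 2-fold was measured in 6 of the 39, namely Cnn1, Tagln, Myl9, Palld, Acta2 and Lmod1, against 1.26% of all genes. Of 26 members the 3 PDGF-BB arrays all lay below the 3 control arrays, which held for 20.6% of all genes, and of 2 members (Tagln2 and Smtn) they lay above, which held for 16.9%. The contractile genes are bright, and calls were more frequent among bright genes. Among the 24 members with a mean of at least 10, 13 fell, which is 54.2%, against 17.6% of all genes at that level. Of the 21 calls 15 held under every alternative in which the gene was tested, each left-out array included; the exceptions were Acta2, Tagln2, Smtn, Mylk, Tpm3 and Csrp2. With the replicate number as a block 23 members fell and 1 rose, against 12.5% and 10.9% of all genes in that fit.

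**Figure D1:**
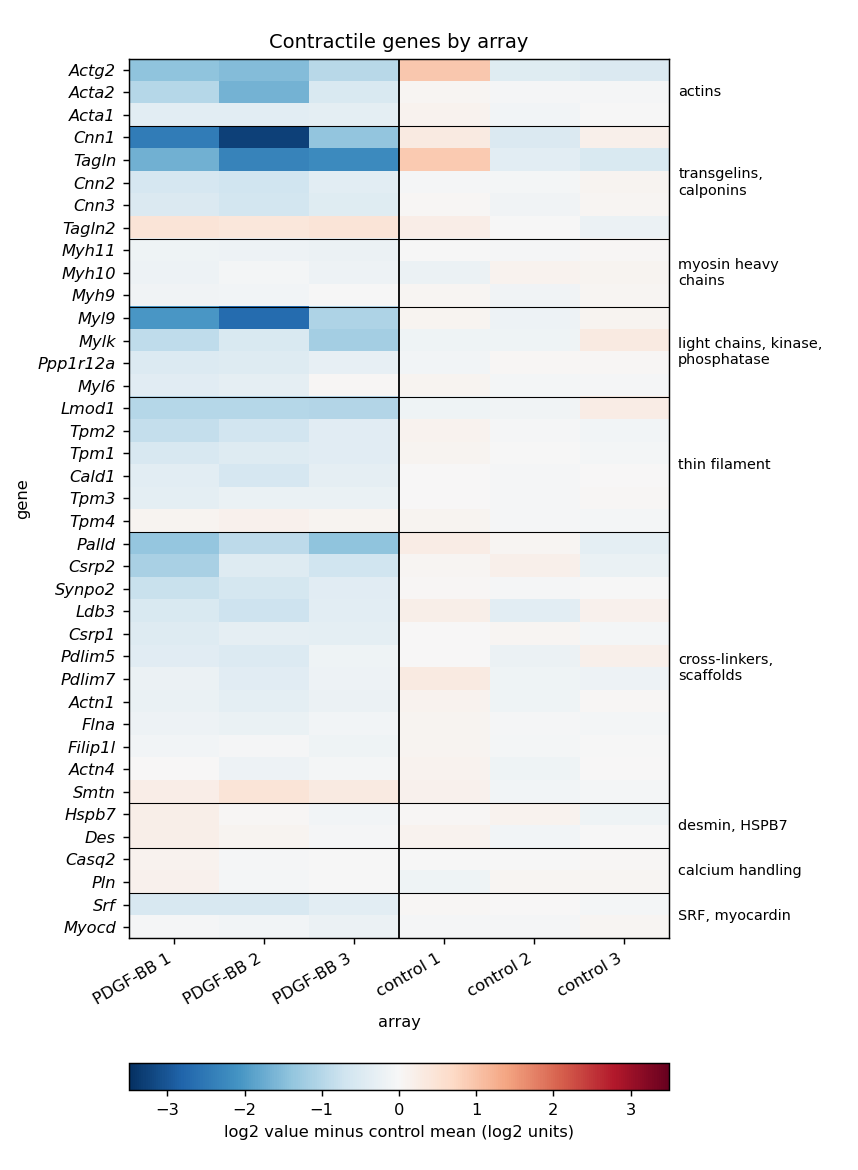
Heat map of the 39 genes (rows, grouped by role) on the 3 PDGF-BB and the 3 control arrays (columns); the colour is the log2 value minus the gene's control mean, in log2 units. Cnn1, Tagln and Myl9 are the darkest rows under PDGF-BB, and control array 1 stands above the other control arrays for Actg2 and Tagln.

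**Figure D2:**
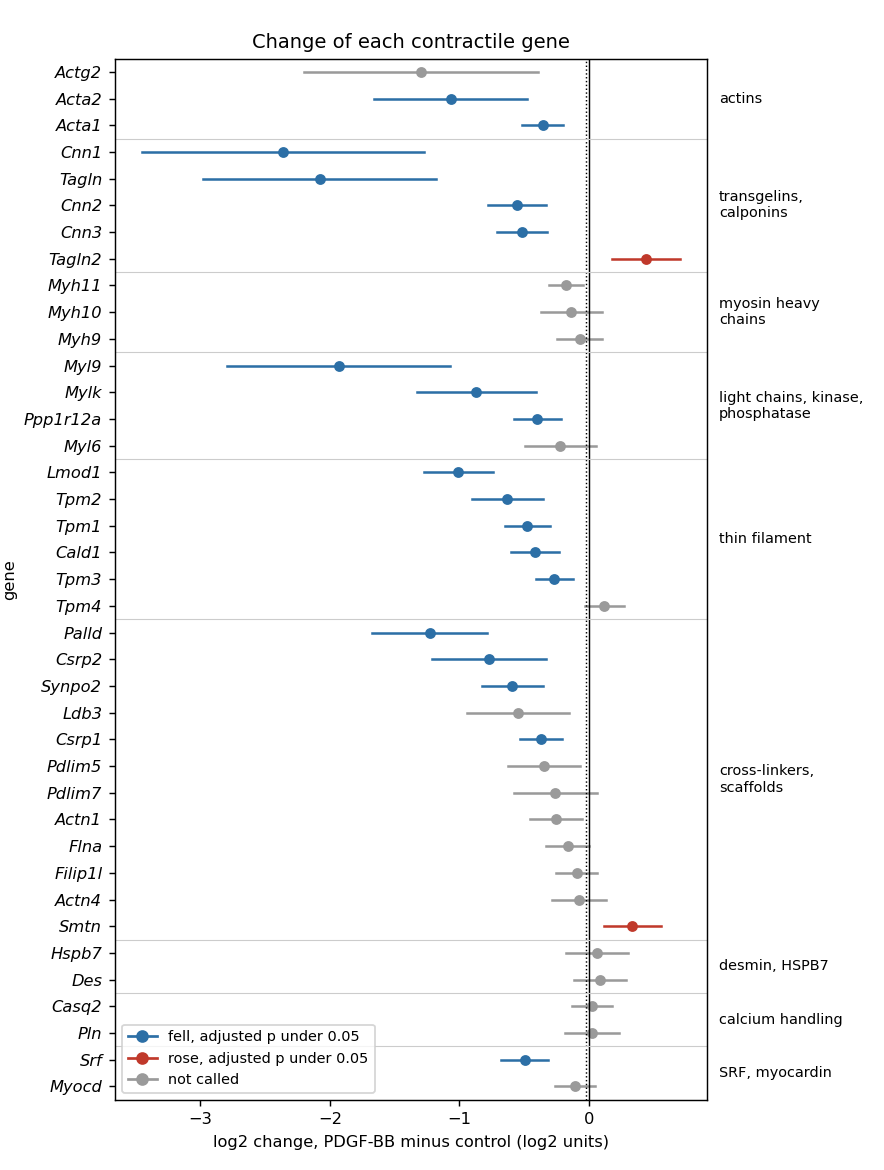
Log2 change (PDGF-BB minus control, log2 units) of each gene with its 95% interval from limma's moderated fit, n = 3 arrays per group; the dotted line is the median change of all genes, -0.02. Of the genes, 19 fell (blue), 2 rose (red) and 18 were not called (grey).

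SRF itself was among the genes that fell. Srf, the transcription factor that binds CArG boxes (Entrez gene 20807), measured 10.93, 10.95 and 11.15 on PDGF-BB arrays 1 to 3, against 11.55, 11.53 and 11.44 on control arrays 1 to 3. The groups did not overlap, and the log2 change was -0.50 (SE 0.08, adjusted p = 0.0053, limma), or 1.41-fold lower. Myocd, which encodes myocardin, the muscle-restricted coactivator of SRF, measured 6.62, 6.57 and 6.46 with PDGF-BB and 6.63, 6.63 and 6.73 in control. Both groups lay below the background level, so no change of Myocd can be read from these arrays (log2 change -0.11, adjusted p = 0.31). All 14 measured SRF cofactors and related factors had means above background. Of these 4 fell (28.6%) and 1 rose (7.14%), against 16.9% and 15.7% of all genes above background. Their median log2 change was -0.19. In the blocked fit 5 fell and 2 rose, with Gata6 (lower, adjusted p = 0.039) and Hopx (higher, 0.049) added. Mrtfa, the gene of MRTF-A, which carries the level of unpolymerised actin to SRF, fell 1.69-fold (10.54 ± 0.08 with PDGF-BB and 11.30 ± 0.25 in control, adjusted p = 0.0063, limma). Tgfb1i1, a LIM adaptor of focal adhesions also called Hic-5, fell 1.73-fold (log2 change -0.79, SE 0.09). The other 2 that fell, named after their values were seen, were Mrtfb, the gene of MRTF-B (log2 change -0.43), and Fhl2, a LIM protein (-0.62). The gene that rose was Elk3, an ETS factor that competes for SRF (1.28-fold, log2 change 0.36). Klf4, a repressor of smooth muscle genes that was picked out afterwards, was not called (log2 change -0.22, adjusted p = 0.51), and its change ran from -0.41 to 0.0014 with 1 array left out. Without PDGF-BB array 2 the Mrtfb call was lost (adjusted p = 0.052).

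The promoters of these genes were read for the element that SRF binds. RefSeq's promoter table for GRCm38.p6 held 34 of the 39 genes, and not Tagln, Myh11, Actg2, Csrp2 or Myocd. The 250 bases before each annotated start site were searched for the CArG box, whose consensus reads the same on both strands. A box was found in 7 of the 34 genes (20.6%), against 1.62% of 27025 genes in the table. The members were chosen as contractile genes, many of which are known to carry the box, so this contrast is no independent result. Of the 17 genes with a promoter that fell, 4 held a box (Myl9, Srf, Cnn2 and Acta1), as did 3 of the 15 that were not called (Myl6, Ldb3 and Filip1l) and 0 of the 2 that rose. With 1 of the 6 inner bases allowed to be other than A or T, the count was 9 of 34 (26.5%), against 9.78% of all genes, and Acta2 and Tpm3 were added. A match is a run of letters and not a site shown to be bound, and a window without a match says only that these letters are not in it. The 180 bases before the start site are shown for Srf, whose own promoter holds a pair of boxes. Those of Myl9 and Cnn2, which hold a box and fell, are shown too. So are those of Acta2, the best known smooth muscle gene, which by this letter rule holds near-matches only. The rule does not tell whether SRF binds a near-match. The sequences run 5′ to 3′ in lower case, with capitals for boxes and near-matches. In Srf (chr17:46556163-46556342, minus strand) both capital stretches are consensus boxes. In Myl9 (chr2:156775284-156775463, plus strand) the first capital stretch is the consensus and the second has 1 departure. In Cnn2 (chr10:79988420-79988599, plus strand) the single capital stretch is the consensus. In Acta2 (chr19:34255374-34255553, minus strand) both have 1 departure.
Srf: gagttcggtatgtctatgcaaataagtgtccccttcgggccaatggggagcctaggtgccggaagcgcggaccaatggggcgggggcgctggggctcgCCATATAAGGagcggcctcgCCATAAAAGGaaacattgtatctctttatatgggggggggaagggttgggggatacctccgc
Myl9: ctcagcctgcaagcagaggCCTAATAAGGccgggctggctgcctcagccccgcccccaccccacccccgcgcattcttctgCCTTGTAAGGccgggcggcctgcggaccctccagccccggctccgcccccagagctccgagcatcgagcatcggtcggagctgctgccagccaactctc
Cnn2: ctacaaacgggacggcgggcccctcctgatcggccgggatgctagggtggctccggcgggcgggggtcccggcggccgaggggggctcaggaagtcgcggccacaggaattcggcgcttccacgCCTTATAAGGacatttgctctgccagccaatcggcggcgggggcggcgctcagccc
Acta2: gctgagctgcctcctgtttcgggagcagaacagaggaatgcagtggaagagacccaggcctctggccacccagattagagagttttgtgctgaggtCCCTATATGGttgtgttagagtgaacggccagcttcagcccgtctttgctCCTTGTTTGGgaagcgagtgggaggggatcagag

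**Figure D3:**
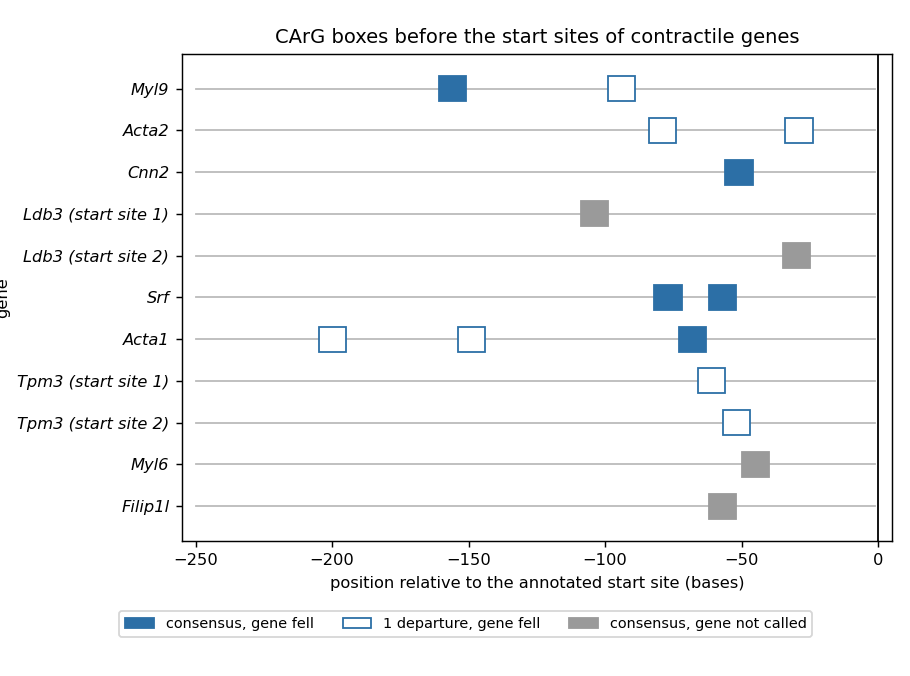
Positions of CArG boxes in the 250 bases before the annotated start sites (bases, start site at 0), for the contractile genes with a box (filled) or a sequence 1 base off it (open); blue genes fell and grey genes were not called. The boxes of Srf begin at -82 and -62, that of Cnn2 at -56 and that of Myl9 at -161; the 2 Ldb3 windows overlap and show the same box.

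The 3 muscle actins in the contractile list were lower on every PDGF-BB array than on any control array, and 2 of them fell. Actc1, cardiac α-actin, was counted with the striated muscle markers and not in that list. It was also lower on every PDGF-BB array, but was not called (log2 change -0.19, adjusted p = 0.16, limma). Acta2, smooth muscle α-actin (Entrez gene 11475), measured 12.76, 12.11 and 13.22 with PDGF-BB, against 13.83, 13.72 and 13.73 in control. The PDGF-BB arrays spread over more than 1 log2 unit, while the control arrays lay close together. The log2 change was -1.07 (SE 0.25, adjusted p = 0.024, limma), but the adjusted p was 0.058 to 0.067 when any single control array, or PDGF-BB array 1, was removed. Actg2, the γ-actin of enteric smooth muscle, measured 7.18, 7.07 and 7.63 with PDGF-BB and 9.53, 8.17 and 8.07 in control. Control array 1 stood far above the other control arrays, and the change of -1.30 missed the threshold (adjusted p = 0.053). The PDGF-BB mean of 7.30 lay below the background level, so the size of this difference is a lower bound. It passed in the fit blocked on replicate number (adjusted p = 0.038), with control array 1 removed, where the change was -0.82 (adjusted p = 0.019), and with control array 3 removed (0.0496). Acta1, skeletal α-actin, fell 1.28-fold (8.80 ± 0.01 with PDGF-BB and 9.16 ± 0.11 in control). Actin genes are near-identical in coding sequence, and whether their probes share targets was not tested. Actb, the β-actin of non-muscle cells, had a log2 change of -0.06 (adjusted p = 0.57). The within-array difference between Acta2 and Actb was -1.22, -1.81 and -0.76 log2 units with PDGF-BB, and -0.22, -0.29 and -0.24 in control.

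The largest falls of the whole apparatus were in calponin 1 and transgelin, thin-filament proteins of differentiated smooth muscle. Cnn1, calponin 1, which damps myosin's action on actin (Entrez gene 12797), measured 8.37, 7.53 and 9.42 with PDGF-BB, against 11.13, 10.30 and 10.98 in control. The groups were separated by almost 1 log2 unit although PDGF-BB array 2 lay well below array 3. Cnn1 was 5.14-fold lower (log2 change -2.36, SE 0.46, 95% interval -3.45 to -1.27, adjusted p = 0.012, limma). Tagln, transgelin or SM22α, which cross-links actin (Entrez gene 21345), measured 8.55, 7.90 and 8.002 with PDGF-BB, against 11.13, 9.85 and 9.70 in control. It was 4.22-fold lower (log2 change -2.08, SE 0.38, adjusted p = 0.0095), and all 3 PDGF-BB arrays were within 1 log2 unit of the background level. Their mean of 8.15 lay below that of Cd3e, a gene taken as absent (8.22), so this fold may be a lower bound. The relatives of Cnn1 and Tagln that other cell types also express moved less. Cnn2 and Cnn3, the calponins of non-muscle cells, fell 1.47-fold and 1.43-fold (log2 changes -0.55, SE 0.09, and -0.52, SE 0.08). Tagln2, transgelin 2, rose: it measured 12.59, 12.54 and 12.58 with PDGF-BB, against 12.37, 12.11 and 11.92 in control (log2 change 0.44, adjusted p = 0.032). The rise missed the threshold when control array 2, control array 3 or any PDGF-BB array was removed (adjusted p = 0.065 to 0.097). The difference between Tagln and Tagln2 within an array averaged -4.42 ± 0.33 with PDGF-BB and -1.91 ± 0.58 in control (SD, n = 3 each), a shift of -2.52 log2 units (exact permutation p = 0.10, two-sided, the smallest that 3 arrays against 3 allow; 0.16 adjusted over 11 pairs). Between Cnn1 and Cnn2 the shift was -1.81 and between Cnn1 and Cnn3 -1.85, with the same p.

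**Figure D4:**
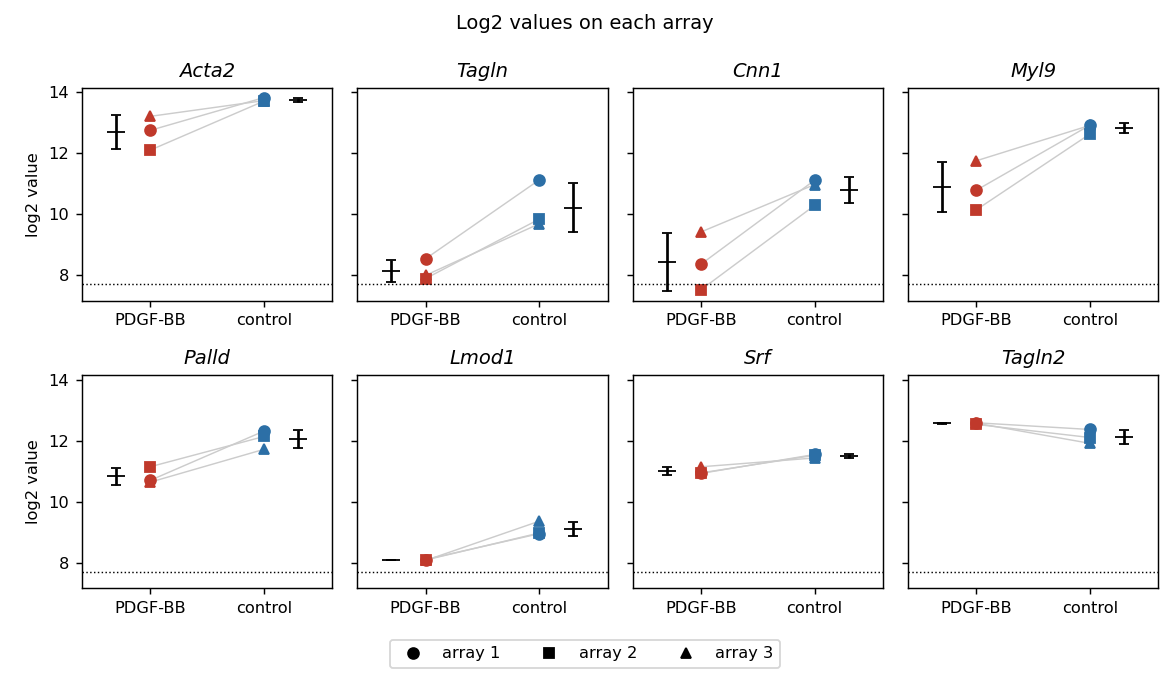
Log2 values of 8 genes on each array, with symbols for the array number, grey lines joining arrays of the same number, black bars for the mean ± SD (n = 3), and the background level of 7.71 dotted. PDGF-BB values lie below all control values in 7 genes and above them in Tagln2; for Acta2, Cnn1 and Myl9 PDGF-BB array 3 is the highest and array 2 the lowest.

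Of the 4 myosin light chain, kinase and phosphatase genes 3 fell (75%), against 16.9% of all genes above background. None of the 3 heavy chains was called. Myl9, the regulatory light chain of smooth muscle myosin, whose phosphorylation starts contraction (Entrez gene 98932), measured 10.79, 10.15 and 11.76 with PDGF-BB, against 12.93, 12.64 and 12.92 in control. Myl9 was 3.81-fold lower (log2 change -1.93, SE 0.36, adjusted p = 0.011, limma). Mylk, the kinase of that light chain, measured 10.09, 10.43 and 9.76 with PDGF-BB and 10.82, 10.80 and 11.28 in control, a 1.83-fold fall (adjusted p = 0.020). Mylk missed the threshold when control array 3, PDGF-BB array 1 or PDGF-BB array 3 was removed (adjusted p = 0.051 to 0.065). Ppp1r12a, the targeting subunit of the phosphatase that acts against Mylk, fell 1.32-fold (log2 change -0.40, SE 0.08). Myl6, the essential light chain, had a log2 change of -0.22 (adjusted p = 0.24) and passed without PDGF-BB array 3 (0.034). Myh11, the heavy chain that defines mature smooth muscle, measured 7.54, 7.50 and 7.48 with PDGF-BB and 7.67, 7.65 and 7.74 in control. The groups did not overlap, but both means lay below the background level, and the change of -0.18 was not called (adjusted p = 0.065). Myh9 and Myh10, the non-muscle heavy chains IIA and IIB, had log2 changes of -0.07 (95% interval -0.25 to 0.10) and -0.14 (-0.37 to 0.10), at levels of 12.63 ± 0.06 and 11.39 ± 0.07 with PDGF-BB, and 12.70 ± 0.11 and 11.53 ± 0.19 in control.

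Of the 6 other thin-filament genes 5 fell (83.3%), against 16.9% of all genes above background. Lmod1, leiomodin 1, which nucleates actin filaments in smooth muscle, had the smallest p of the members, measuring 8.11, 8.09 and 8.08 with PDGF-BB and 8.96, 8.98 and 9.37 in control (log2 change -1.01, SE 0.11, adjusted p = 0.0020, limma). Its PDGF-BB arrays were nearly identical, and their mean of 8.09 lay near the background level of 7.71. That mean was below the 8.22 of Cd3e, a gene taken as absent, so the change may be a lower bound in size. Whether a small spread near background lowered this p was not tested. Among the tropomyosins, the coiled coils that lie along actin and gate myosin, Tpm2 fell 1.55-fold (log2 change -0.63), Tpm1 1.39-fold (-0.48) and Tpm3 1.20-fold (-0.27). Tpm4 had a log2 change of 0.12 and was not called (95% interval -0.03 to 0.27, adjusted p = 0.27). Tpm3 missed the threshold when control array 1, control array 3, PDGF-BB array 1 or PDGF-BB array 2 was removed (adjusted p = 0.051 to 0.069). The within-array difference between Tpm2 and Tpm4 averaged -2.45 ± 0.21 with PDGF-BB and -1.70 ± 0.04 in control, a shift of -0.75 (exact permutation p = 0.10, adjusted 0.16). Cald1, caldesmon, which holds myosin off actin, measured 12.43, 12.22 and 12.48 with PDGF-BB, against 12.81, 12.76 and 12.82 in control, and fell 1.34-fold (adjusted p = 0.011). Tpm1, Tpm2, Cald1 and Mylk each make muscle and non-muscle transcripts, and 1 probe set per gene does not separate them.

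The cross-linkers and dense body scaffolds were mixed: of 12, 4 fell (33.3%), 1 rose (8.33%) and 7 were not called. All 12 had means over the 6 arrays above background, a level at which 16.9% of all genes fell and 15.7% rose. Palld, palladin, an α-actinin partner of stress fibres, measured 10.70, 11.15 and 10.64 with PDGF-BB, against 12.32, 12.14 and 11.72 in control, and fell 2.34-fold (log2 change -1.23, SE 0.19, adjusted p = 0.0050, limma). Csrp2, a LIM protein of vascular smooth muscle, fell 1.71-fold, but missed the threshold on removing control array 1, control array 2, PDGF-BB array 1 or PDGF-BB array 3 (adjusted p = 0.051 to 0.082). Its relative Csrp1 fell 1.29-fold. Synpo2, synaptopodin 2 or myopodin, fell at least 1.51-fold, with its PDGF-BB mean of 7.68 just below the background level. Smtn, smoothelin, a contractile smooth muscle protein, was the exception: it measured 11.26, 11.48 and 11.33 with PDGF-BB, against 11.19, 10.92 and 10.97 in control (log2 change 0.33, adjusted p = 0.044). Its rise missed the threshold in the fit blocked on replicate number (adjusted p = 0.067), after a repeated quantile normalization (0.059) and when control array 2, control array 3 or any PDGF-BB array was removed (0.066 to 0.13). Ldb3, a Z-disc protein, Actn1, α-actinin 1, and Pdlim5, a PDZ and LIM protein, had log2 changes of -0.55, -0.26 and -0.35 that missed the threshold (adjusted p = 0.060, 0.078 and 0.084). With the block all 3 passed (adjusted p = 0.0095, 0.041 and 0.015), so that 7 of the 12 fell in that fit, against 12.5% of all genes. Filamin A (Flna), Pdlim7, Actn4 and Filip1l had log2 changes from -0.26 to -0.08. Within an array, Actn1 minus Actn4 was -0.14, -0.08 and -0.05 with PDGF-BB and 0.08, 0.08 and 0.11 in control, a shift of -0.18 (SE 0.03, exact permutation p = 0.10, adjusted 0.16).

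Several genes that mark a fully muscular cell could not be read. Des, desmin, the muscle intermediate filament, measured 7.44, 7.33 and 7.20 with PDGF-BB and 7.35, 7.15 and 7.21 in control, below the background level in both groups. Hspb7, a small heat shock protein of muscle, Pln, phospholamban, which restrains the calcium pump SERCA, and Casq2, calsequestrin 2, which buffers stored calcium, were also below it, with means of 7.57, 6.58 and 5.51 under PDGF-BB and 7.51, 6.55 and 5.49 in control. Together with Myh11 and Myocd these make 6 members below background in both groups, and no fold is given for them. None of 23 striated muscle markers, among them troponins, was called in the limma fit, although 1 (Tnnc1) fell with the block and 1 without PDGF-BB array 2; 10 of them had means above the background level, the highest being Actc1 (9.35 ± 0.04 with PDGF-BB and 9.55 ± 0.14 in control).

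The falls did not have the same size on the 3 PDGF-BB arrays. In 13 of the 19 genes that fell PDGF-BB array 3 was the highest of its group, and in 9 and 7 of them arrays 1 and 2 were the lowest. The median difference of the 39 members from their control means was -0.39, -0.39 and -0.27 on PDGF-BB arrays 1 to 3. PDGF-BB minus control within array numbers 1, 2 and 3 was -2.76, -2.77 and -1.56 log2 units for Cnn1. It was -2.14, -2.49 and -1.16 for Myl9 and -1.08, -1.61 and -0.52 for Acta2. Lmod1 and Mylk ran otherwise, with their widest differences between the arrays numbered 3 (-1.29 and -1.51).

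Genes related to the apparatus but outside the 39 fell to different extents. The related lists were chosen with earlier results of these data known, so their counts are no independent support. In a list of 19 other smooth muscle genes, 9 (47.4%) fell and 0 rose, against 11.4% and 10.1% of all genes. Above background, where 13 of the 19 had their means, the shares of all genes were 16.9% and 15.7%. The median change of the list was -0.38 log2 units. Vcl, vinculin, fell 1.55-fold and Svil, supervillin, which ties myosin to the membrane, 1.70-fold. The largest fall, named after its value was seen, was that of Fhl1, a LIM protein of muscle (4.18-fold, 10.13 ± 0.59 with PDGF-BB and 12.19 ± 0.03 in control, adjusted p = 0.0028, limma). The count of this list that fell was 5 without control array 2 and 4 without PDGF-BB array 2, and with the block 11 fell and 1 rose (Itga8, the α8 integrin, named after its value was seen, adjusted p = 0.039). Of 16 general actin cytoskeleton genes 4 fell and 2 rose (25.0% and 12.5%, median -0.11). All 16 had means above background, a level at which 16.9% of all genes fell and 15.7% rose. Tmsb4x, the actin-sequestering thymosin β4, fell 1.53-fold and Zyx, zyxin, 1.24-fold. Vasp and Diaph1, which promote actin polymerisation, rose 1.23-fold and 1.25-fold. The other 2 that fell, picked out afterwards, were Flnc and Capzb. In the blocked fit Capzb missed the threshold (adjusted p = 0.074) and Lima1, which bundles actin filaments, fell (0.025). On removal of PDGF-BB array 1 or PDGF-BB array 2 the count that fell was 2, and on removal of control array 2 or PDGF-BB array 1 the count that rose was 1.

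Of 18 genes of calcium channels, pumps and stores 3 rose and 3 fell (16.7% each, median 0.03). These shares were near those of all genes above background (15.7% rose and 16.9% fell), but only 13 of the 18 had means above it. Of all genes at any level 10.1% rose and 11.4% fell. Cacna2d1, an auxiliary subunit of voltage-gated calcium channels, rose 1.83-fold (10.82 ± 0.13 with PDGF-BB and 9.95 ± 0.05 in control, adjusted p = 0.0012, limma), and Orai1, the store-operated channel, 1.26-fold. Stim1, the store sensor that opens Orai1, fell 1.67-fold, and Camk2g, a calcium-dependent kinase, 1.36-fold. The third in each direction, picked out afterwards, were Itpr2, a calcium release channel (rose, log2 change 0.32), and Kcnma1, a potassium channel below background in both groups (fell, -1.26). With the block 5 of the 18 fell and 2 rose. Atp2b4, a calcium pump of the plasma membrane named after its value was seen, was not called at a log2 change of -1.63 (adjusted p = 0.078) but passed without control array 1 (-0.92, adjusted p = 0.0035), on which it measured 10.55 against 8.54 and 8.32 on the other control arrays. Its PDGF-BB mean of 7.51 lay below background, so both differences are lower bounds in size.

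**Figure D5:**
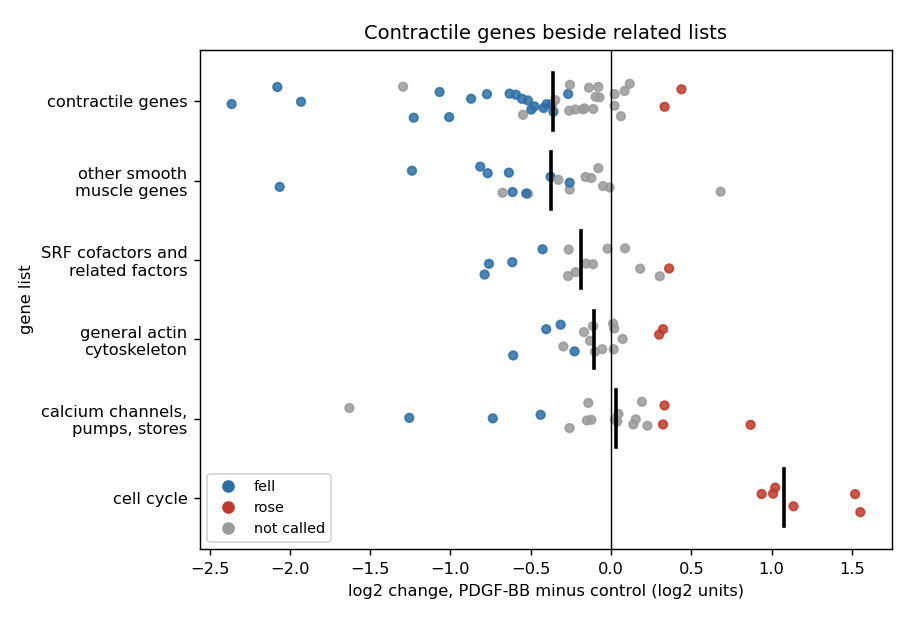
Log2 change (PDGF-BB minus control, log2 units) of the 39 contractile genes and of 5 related lists; points are genes, blue where they fell, red where they rose and grey where not called, and black bars are list medians. The medians are -0.36 for the contractile genes, -0.38 for other smooth muscle genes and 1.08 for the cell cycle genes.

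Other features of the cultures were read beside the contractile genes, and not all of them differed between the groups. Of all genes 10.1% rose and 11.4% fell. All 6 measured cell cycle genes rose, among them Cdk1 (1.91-fold) and Mcm5 (2.87-fold), with a median log2 change of 1.08; 3 rose with a trended and robust variance, and likewise on removal of control array 2 or of any PDGF-BB array. The log2 of their summed signal was 14.41 to 14.49 on the PDGF-BB arrays and 12.75 to 13.79 on the control arrays. The summed signal of the 39 contractile genes was 16.78 to 16.96 with PDGF-BB and 17.19 to 17.34 in control on that scale. Of 10 fibroblast markers 2 rose, Lum (log2 change 2.91) and Dpt (0.72), and 1 fell, Mfap5 (-2.52). The Dpt call was lost without control array 3, PDGF-BB array 2 or PDGF-BB array 3 (adjusted p = 0.061 to 0.066, limma). The summed signal of the 10, to which the brightest genes add most, overlapped between the groups (15.57 to 15.74 with PDGF-BB and 15.52 to 15.64 in control). For 12 pericyte markers, of which 1 rose (Anpep) and 1 fell (Cd248), it was 13.81 to 13.88 with PDGF-BB and 13.88 to 14.02 in control. Cd248 missed the threshold on removal of any array but control array 1 (adjusted p up to 0.13), and in the blocked fit 2 of these markers rose and 2 fell, with Cspg4 (log2 change 0.91, adjusted p = 0.015) and Mcam (-0.52, 0.023) added. Macrophage markers were lower in sum with PDGF-BB (10.38 to 10.40, against 10.56 to 10.66 in control), where 2 fell (Lyz2 and Cd68). Cd68 was the only macrophage marker with a mean above background, and Lyz2, Adgre1, Csf1r and Ptprc were below it on every array. Endothelial markers overlapped in sum (10.42 to 10.53 with PDGF-BB and 10.38 to 10.47 in control), with Pecam1, Kdr and Tie1 below background on every array. Cdh5, VE-cadherin of endothelial cells, measured 7.80, 7.88 and 7.23 with PDGF-BB and 7.23, 7.14 and 7.21 in control. It was higher on every PDGF-BB array, with both means below background, and passed only on removal of PDGF-BB array 3 (log2 change 0.45, adjusted p = 0.10 with all arrays and 0.0053 without that array). The part of these features in the fall of the contractile genes was not tested.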

How the data were processed

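Arrays of 3 PDGF-BB and 3 control cultures were analysed. The authors deposited log2 expression values for 21225 probe sets, made with RMA (background correction, quantile normalization across arrays, probe set summary), per the submitters' processing notes; software version, probe definition and filters: not given in the sources used here. The log2 scale was read from the method and the values (4.08 to 14.23). GEO's platform annotation gives 20239 probe sets exactly 1 symbol and none several; the other 986 (4.65%) are unnamed here and entered 1 alternative only. Because RMA equalises the arrays, differences in RNA content per cell are lost.

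Groups came from the sample titles. All named genes were fitted with limma 3.58.1 (R 4.3.3, lmFit and eBayes) with group as the only factor, two-sided, Benjamini-Hochberg adjusted over all 20239 genes, and called at an adjusted p under 0.05. Log2 changes were converted to folds, given as "at least" where the PDGF-BB or control mean was under 7.71 and not at all where both were. Related genes were compared as within-array log2 differences by an exact permutation test over arrays, for 11 pairs. The number of arrays limits the precision. The fit was tested on simulated data. The members and lists were chosen with earlier results of these data known. All members are accounted for; 1 further list of related genes is not reported here. Genes of the other lists are named by p, the lowest 2 called genes each way; any others were picked after their values were seen.

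Across genes, the deviations of PDGF-BB and control arrays 1, 2 and 3 from their group means correlated at 0.25, 0.32 and 0.25 within a number, and at -0.28 to 0.01 between numbers. Deviations from a group mean cancel out over its arrays, so positive values within a number push those between numbers down. The numbers, which come from the titles, were therefore taken only as a possible pairing, which these values do not establish. The principal fit has no pairing term; results of a fit blocked on replicate number are given where they change a member's call or a list's count of calls. Alternatives were that block, a repeated quantile normalization, centring on array medians, a filter on dim genes, a trended and robust variance, all probe sets, and each array left out. No scan dates or slides were used, so other batches were not tested. Start-site windows came from RefSeq's promoter table (GRCm38.p6).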

Additional observations from a re-analysis of the deposited data

How the results depend on the processing

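The count of contractile genes that fell was 19 or 23 in the alternatives that kept all arrays and 15 to 20 with 1 array left out, and their median log2 change stayed between -0.40 and -0.32. The count that rose was 2 and depended on Tagln2 and Smtn: it was 1 with repeated quantile normalization and 1 with the replicate block, and 0 to 2 with 1 array left out. Over all genes 2305 fell and 2037 rose, and 1514 to 2188 fell and 1420 to 2031 rose with 1 array left out, the lowest without PDGF-BB array 2. Over the genes of the 5 related lists together 20 fell and 12 rose, and 12 to 22 fell and 7 to 12 rose with 1 array left out. The 12 that rose include all 6 cell cycle genes. Without that list 20 of 66 genes fell (30.3%) and 6 rose (9.09%). Of all genes 11.4% fell and 10.1% rose, and of those above background, as 56 of the 66 were, 16.9% and 15.7%. Fewer arrays also mean fewer residual degrees of freedom. The replicate block changed 5 member calls (Actg2, Ldb3, Actn1 and Pdlim5 gained, Smtn lost) and no other call of a member. Ldb3 also passed among genes above the 50th percentile of mean signal (adjusted p = 0.040), where fewer genes are tested, and without control array 2 (0.012), as did Actn1 (0.033) and Pdlim5 (0.0496). Among the members, Pln, Casq2 and Hspb7 changed sign: with 1 array left out, the log2 change of Pln ranged from -0.050 to 0.064, that of Casq2 from -0.027 to 0.057 and that of Hspb7 from -0.017 to 0.13. The pair difference Myh11 minus Myh10 (-0.04) ranged from -0.12 to 0.060, and Pdlim7 minus Pdlim5 (0.09) from -0.080 to 0.23 in the same way. With the replicate number as a block, the pair differences keep their values, and an exact sign-flip test over 3 pairs cannot go below 0.25. No gene had several probe sets, so averaging them did not arise. Dim genes near background limit what can be read of Myh11, Myocd, Des, Hspb7, Pln and Casq2.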
